A study of Mus musculus with 6 samples.

Results

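The genes studied here lie around Ptbp1 on chromosome 10 of the mouse. They were chosen by position alone, as rows of the authors' deposited table whose locus starts between 79000000 and 81000000 (mm10). Ptbp1 itself and some gene families were left out by name, subunits of the ribosome and the respiratory chain among them. This gave 105 genes of 55331 in the table, from 118 rows in the window, and 13 rows were left out, Ptbp1 included. Of the 105 genes, 73 were tested by Cuffdiff, and 56 of those reached 1 FPKM in a group, a level scaled to transcript length and sequencing depth. The other 32 were not tested. Of these, 22 were listed at 0 in both groups and none exceeded 0.137 FPKM.

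The RNA was polyadenylated RNA of whole testes from mice aged 35 days and of mixed strain. Control mice (3 libraries, titled WT) were homozygous for the floxed Ptbp1 allele, Ptbp1fl/fl, without Cre. Ptbp1_cKO mice (3 libraries, titled PTBP1_KO) were Ptbp1fl/fl; Amh-Cre+/-, with a Cre transgene named for the promoter of Amh, a gene of Sertoli cells. Both groups therefore carried the floxed allele on both copies of chromosome 10, and no group carried Amh-Cre without it, so an effect of the deletion and one of the transgene cannot be told apart. Whether the 3 libraries of a group came from separate animals is not stated in the labels, so a p-value speaks for these libraries only, and the table gives 1 FPKM value per group with no spread between libraries. Whether the libraries of the 2 groups overlap for a gene is thus not shown, and FPKM values are printed as the authors' group values.

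PTBP1 binds pyrimidine-rich RNA and governs alternative splicing, and the study asked what it does in Sertoli cells, which nurse the germ cells. Its neighbours on chromosome 10 form a dense stretch of mostly GC-rich genes of unrelated function. The neighbours of a targeted gene are often examined to see whether the locus as a whole behaves differently between groups. Amh itself lies in the window.

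Both genes past the threshold were higher in Ptbp1_cKO. Midn (ENSMUSG00000035621) encodes midnolin, a nuclear protein that brings proteins to the proteasome, and Rexo1 encodes an RNA exonuclease homolog that binds elongin A. Their sequences upstream of the RefSeq start (GRCm38.p6, the assembly named mm10) are printed because these 2 genes carry the result, with Gamt beside them as an example, chosen after the motif search, of a gene that shares a motif with Midn. Capitals mark the Sp1/KLF box GGGCGG, searched on both strands together with the CCAAT box, the TATA box (TATAAA) and the cAMP response element (TGACGTCA). Each line holds the 200 bases before the start, 5′ to 3′ on the gene's strand. They lie at chr10:80148072-80148271 on the plus strand for Midn, chr10:80561561-80561760 on the minus strand for Rexo1 and chr10:80261013-80261212 on the minus strand for Gamt.
Midn: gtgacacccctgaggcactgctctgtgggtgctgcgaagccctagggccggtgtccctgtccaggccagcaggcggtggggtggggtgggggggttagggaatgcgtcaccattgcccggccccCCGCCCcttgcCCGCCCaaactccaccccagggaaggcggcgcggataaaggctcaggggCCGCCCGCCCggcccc
Rexo1: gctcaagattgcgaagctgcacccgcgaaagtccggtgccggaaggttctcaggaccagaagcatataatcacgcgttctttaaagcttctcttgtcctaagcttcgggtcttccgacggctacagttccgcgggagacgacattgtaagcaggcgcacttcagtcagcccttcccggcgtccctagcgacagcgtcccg
Gamt: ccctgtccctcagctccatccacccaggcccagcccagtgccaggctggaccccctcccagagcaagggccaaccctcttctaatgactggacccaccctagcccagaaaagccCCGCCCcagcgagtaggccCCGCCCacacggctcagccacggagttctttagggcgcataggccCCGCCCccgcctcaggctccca

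Midn held 4 Sp1/KLF boxes in these 200 bases, 2 of them overlapping, and Gamt held 3, while none of the 4 motifs was found for Rexo1. Of the 5 genes at an unadjusted p under 0.05 that have a RefSeq sequence, only Midn and Gamt held the box: Oaz1 held a CCAAT box alone, and Med16 held none of the 4 motifs. The box stood in 56.8% of 81 upstream sequences of 65 genes near Ptbp1, in 45.6% of those of all tested genes and in 31.0% of all 32851 sequences of the table. Upstream sequences near Ptbp1 had a median GC content of 64% against 58.5% for tested genes, and a median of 14 CpG dinucleotides against 10. Midn has a further RefSeq start 1410 bp downstream, with 3 boxes and 3 CCAAT matches. A match describes the letters only.

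Midn (chromosome 10, 80148272 to 80158368, mm10, plus strand, 284 kb from Ptbp1) stood at 24.7 FPKM in control and 34.0 FPKM in Ptbp1_cKO, or 1.38 times the control level. Cuffdiff gave it a log2 fold change of 0.46 with p = 5e-05 and q = 0.00848 in the authors' deposited table, the smallest p the table holds and one shared by 130 genes. Rexo1 (80540922 to 80561560, minus strand, 676 kb from Ptbp1) stood at 139.4 FPKM in control and 181.8 FPKM in Ptbp1_cKO, or 1.30 times the control level. Its log2 fold change was 0.38, with p = 2e-04 and q = 0.0248 by Cuffdiff in the authors' deposited table. About 19345 fragments lay behind the control value of Midn and about 157201 behind that of Rexo1, so counting error was small for both. Neither gene's exons overlapped those of another annotated gene, and no near-identical copy was found elsewhere for any of the 73 tested genes.

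At q under 0.05, 2 of the 73 tested genes were higher, or 2.74%, where 0.458% of all 22048 tested genes were called higher. None was called lower, where 0.703% of all tested genes were. Calls in either direction made up 1.16% of all tested genes but 0.846% of those on the other autosomes. The shares called higher were alike (0.458% and 0.464%), so lower calls were rarer on the other autosomes than over all genes. The share of higher calls rests on 2 genes. The absence of lower calls depends on the genes left out by name: one of those, Cfd, a complement factor, was called lower, at 1.23 FPKM in control and 0.501 in Ptbp1_cKO (q = 0.0202 by Cuffdiff in the authors' deposited table). At an unadjusted Cuffdiff p under 0.05, 6 genes were higher (8.22%, against 4.38% of all tested genes). At that p 0 were lower (against 4.59%, or 3.49% on the other autosomes). Both calls were lost when the p-value was recomputed by treating Cuffdiff's statistic as a standard normal value: it was 2.24 for Midn and 2.14 for Rexo1, and the adjusted p was 0.9999 for each. Of all genes with a statistic, 61 (0.277%) had one at least as large as that of Midn. That is fewer than a standard normal value would give. Before adjustment the normal p of Midn was 0.0249, against Cuffdiff's deposited 5e-05. The statistic thus does not follow a standard normal, and this recomputation cannot decide on either call.

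The other 4 genes at an unadjusted p under 0.05 did not pass over all genes. Mex3d, an RNA-binding protein with a RING finger, had 259.8 FPKM in control and 321.4 in Ptbp1_cKO (1.24 times, q = 0.167 by Cuffdiff in the authors' deposited table). Gamt, which makes creatine, had 8.84 and 11.5 FPKM (1.30 times, q = 0.302 in the authors' deposited table). Oaz1, the antizyme that limits polyamine synthesis, had 50.2 and 62.7 FPKM, with q = 0.413 by Cuffdiff in the authors' deposited table. Med16, a subunit of the Mediator complex that links transcription factors to RNA polymerase II, had 26.8 and 31.7 FPKM, with q = 0.474 by Cuffdiff in the authors' deposited table. All 4 stood at 1.18 to 1.30 times the control level.

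**Figure D1:**
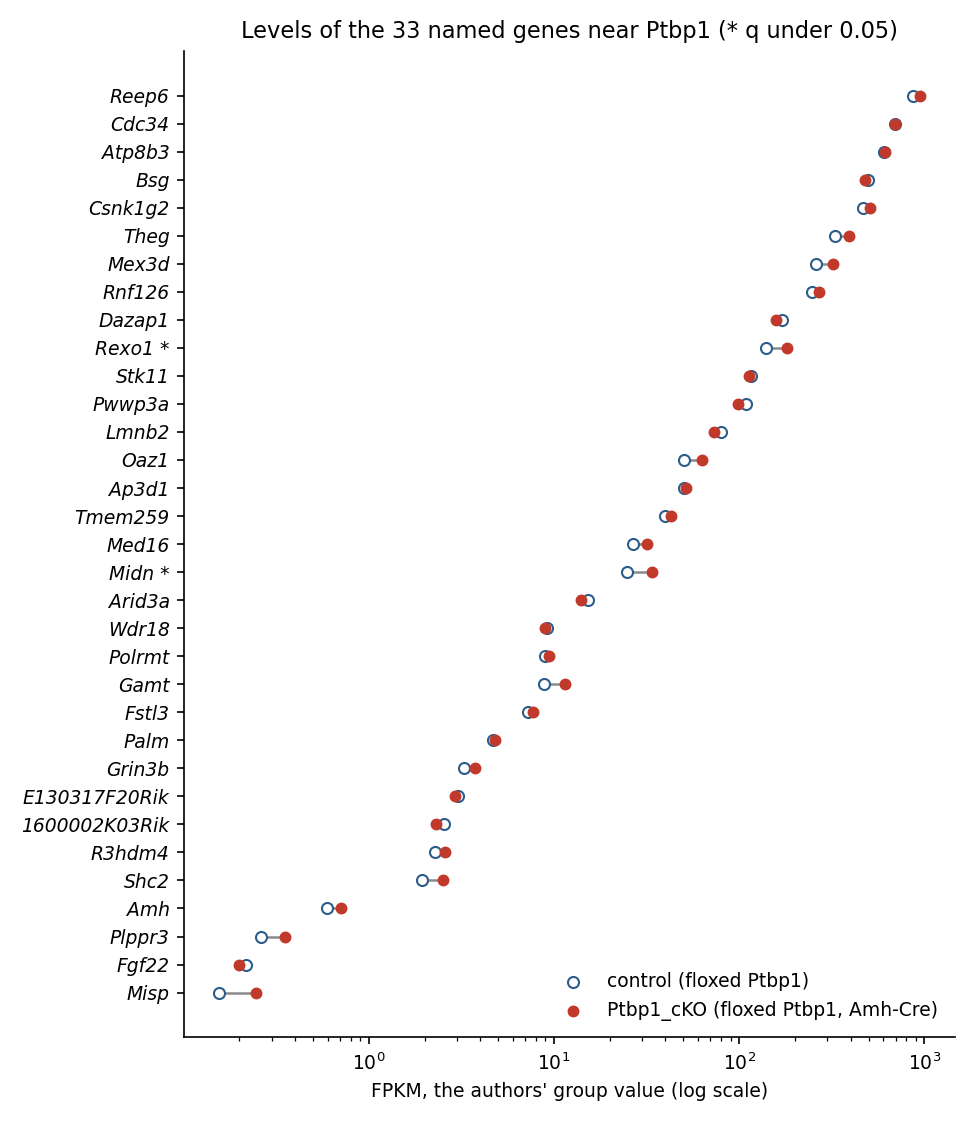
FPKM of the 33 named genes near Ptbp1 on a log scale, with open circles for control and filled circles for Ptbp1_cKO; each circle is the authors' value for a group of 3 libraries, so no error bar is drawn. Most pairs lie close together across levels from 0.156 to 944.9 FPKM, and the asterisks mark Midn and Rexo1, the 2 genes with q under 0.05.

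Among the genes kept, the direct neighbours of Ptbp1 showed no call. Genes left out by name, among them Cfd, which was called lower, are not covered here. Ptbp1 itself stood at 49.97 FPKM in control and 46.66 in Ptbp1_cKO, and a gene-level value of whole testis does not check a deletion in Sertoli cells. E130317F20Rik, a non-coding gene that starts opposite Ptbp1 and overlaps its exons, had 3.03 and 2.91 FPKM. Plppr3, a membrane protein related to lipid phosphatases whose exons overlap those of Ptbp1 on the other strand, had 0.261 and 0.352 FPKM. The libraries were stranded, but whether the counting used strand is not given in the sources used here, so reads of Ptbp1 and of these partners may not be fully separated.

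On the side of lower coordinates, Misp, an actin-binding protein of the mitotic spindle, had 0.156 and 0.246 FPKM at about 81 control fragments. Palm, a lipid-anchored protein of the plasma membrane, had 4.68 and 4.80 FPKM. Fstl3, a secreted inhibitor of activin, had 7.28 and 7.72 FPKM. Rnf126, a ubiquitin ligase, had 247.3 and 268.7 FPKM, and Polrmt, the mitochondrial RNA polymerase, 8.99 and 9.44 FPKM. None of these passed Cuffdiff's threshold. Fgf22, a fibroblast growth factor that overlaps Rnf126, was low, at 0.217 and 0.200 FPKM.

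On the other side, after Med16, R3hdm4 had 2.27 and 2.57 FPKM. Arid3a, a DNA-binding regulator of transcription, had 15.3 FPKM in control and 14.0 in Ptbp1_cKO. Wdr18, which takes part in ribosome assembly, had 9.21 and 8.90 FPKM. Grin3b, a subunit of NMDA receptors, and Tmem259 overlap each other, at 3.27 and 3.77 FPKM for Grin3b and 39.9 and 42.6 FPKM for Tmem259. Both directions thus occurred next to Ptbp1, and these 5 genes stood between 0.916 and 1.15 times their control level.

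By distance, the medians lay close together. Over the expressed genes (those that reached 1 FPKM in a group) the median log2 fold change was 0.06 for the 8 under 100 kb from Ptbp1, 0.09 for the 24 at 100 to 500 kb and 0.07 for the 24 beyond 500 kb. No gene kept under 100 kb was called. At 100 to 500 kb 1 of 30 tested genes was called higher, and beyond that 1 of 32. Genes left out by name, among them Cfd, which was called lower, are not in these counts. With only 11 genes tested under 100 kb and 0.458% of all tested genes called higher, a count of 0 there says nothing about distance. At lower coordinates 11 of 12 expressed genes had a higher FPKM in Ptbp1_cKO, and at higher coordinates 30 of 43 did. These groups are small, and their differences were not tested.

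**Figure D2:**
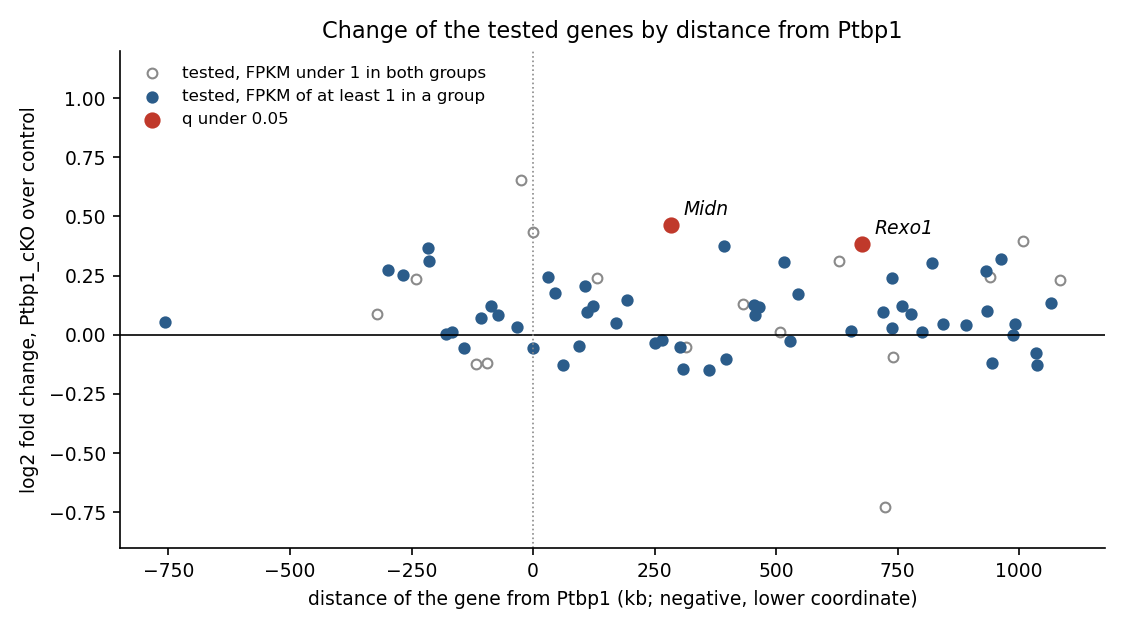
Log2 fold change of the tested genes, Ptbp1_cKO over control, against distance from Ptbp1 in kb; filled circles reached 1 FPKM in a group, open circles did not, and Gm15123, listed at 0 in Ptbp1_cKO, has no point. Filled circles lie between -0.15 and 0.46, and those under 100 kb between -0.13 and 0.24, with Midn at 284 kb and Rexo1 at 676 kb.

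Seen together, the neighbours of Ptbp1 leaned slightly upwards in Ptbp1_cKO. Of the 56 expressed genes, 41 had a higher FPKM, or 73.2%, against 48.9% of all 15789 expressed genes. Their median log2 fold change was 0.08 (quartiles -0.01 and 0.18), where that of all expressed genes was -0.01 and that of the rest of chromosome 10 was -0.01 over 707 genes. A rise of at least 1.2 times was seen in 10 genes (17.9%, against 10.8% of all expressed genes). A fall of that size was seen in 0 (against 8.95%, or 7.43% on the other autosomes). Cfd, left out by name, had 1.23 FPKM in control and 0.501 in Ptbp1_cKO (log2 fold change -1.29). The count of 0 falls thus holds for the genes kept only, while the shares over all genes include the left-out families. Among the genes kept, no expressed gene changed by 1.5 times. Below 1 FPKM Misp stood at 1.58 and Gm29093 at 0.604 times the control level, neither past Cuffdiff's threshold. The median was 0.0502 with the genes left out by name put back, and also 0.0502 over genes of at least 5 FPKM. The largest expressed falls were those of Pwwp3a, a chromatin protein with a PWWP domain (108.8 and 98.1 FPKM), the uncharacterised 1600002K03Rik (2.56 and 2.32 FPKM), Lmnb2, which encodes lamin B2 of the nuclear lamina (79.8 and 73.0 FPKM), and Arid3a, and none of the 4 passed Cuffdiff's threshold.

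GC content moved with the change across the whole table, and the genes near Ptbp1 are GC-rich. The median GC content of the longest transcript was 58.5% for the expressed genes near Ptbp1 and 48.9% for all expressed genes. When tested genes were split into 5 equal groups by GC content, the median log2 fold change of expressed genes went from -0.09 in the lowest to -0.04, -0.01, 0.03 and 0.08 in the highest (above 54.7% GC). The share with a higher FPKM in Ptbp1_cKO went from 29.6% in the lowest group to 67.8% in the highest. Across 15771 expressed genes, GC content and log2 fold change had a Pearson r of 0.23 and a Spearman rho of 0.30. Among the 56 expressed genes near Ptbp1 alone the relation was weaker, with an r of 0.10 and a rho of 0.13. As 49 of the 56 lie in the highest GC group, these values cannot show whether GC content matters less near Ptbp1. These genes share the same 6 libraries and are not independent, so no p is given.

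Of the 56 expressed genes near Ptbp1, 49 fell in the highest GC group. Their median log2 fold change was 0.08 and 37 of them (75.5%) had a higher FPKM in Ptbp1_cKO. Genes of the same GC group outside the window had a median of 0.08 over 3154 genes and 67.8% with a higher FPKM, and the 107 on the rest of chromosome 10 had 0.10 and 69.2%. A rise of at least 1.2 times was seen in 16.3% of the genes near Ptbp1 in this group and in 17.8% of those outside the window, a fall of that size in 0% and 3.65%. Both Midn (59.3% GC) and Rexo1 (60.0% GC) belong to this group. There, 3.23% of tested genes near Ptbp1 were called higher against 0.670% outside the window, again by 2 genes. A change at least as large as that of Midn was seen in 4.61% of the expressed genes of this group over the whole table, and one as large as that of Rexo1 in 7.85%. The part of GC content in the single calls was not tested.

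**Figure D3:**
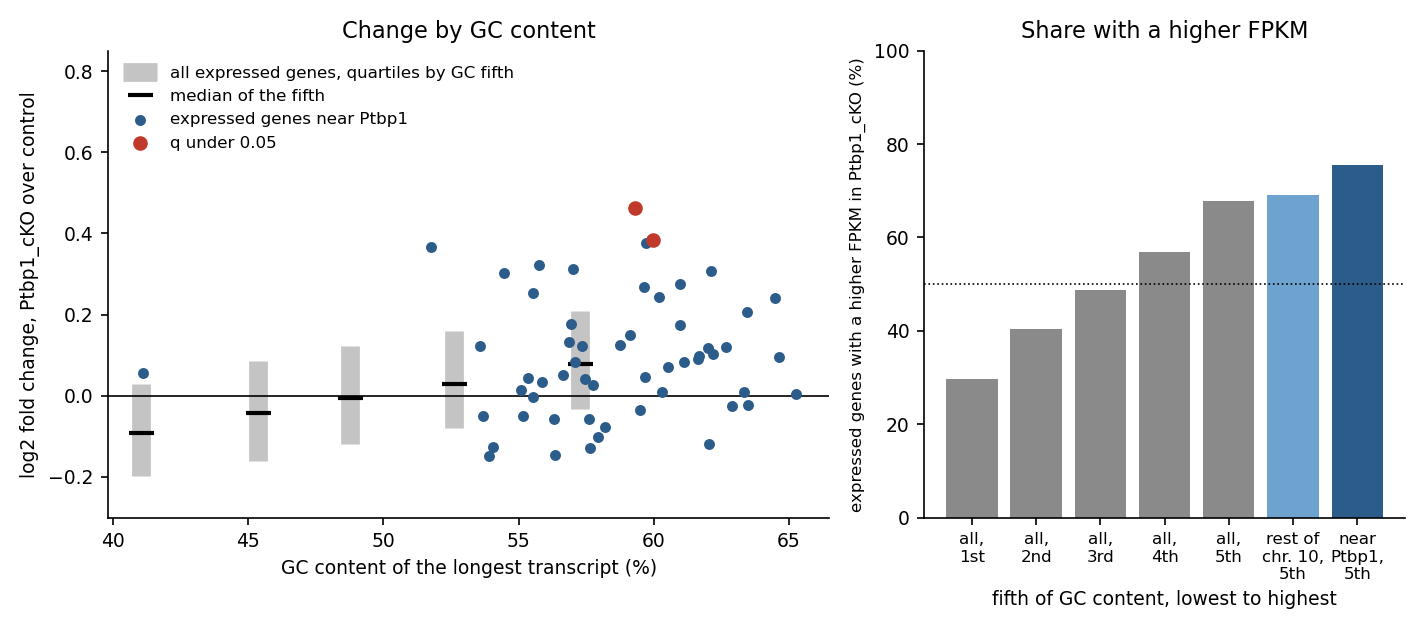
Left, log2 fold change against GC content of the longest transcript (%), with grey bars for the quartiles and black marks for the medians of all expressed genes in 5 GC groups, and points for the 56 expressed genes near Ptbp1. Right, share of expressed genes with a higher FPKM in Ptbp1_cKO (%), by GC group, with the highest group of the rest of chromosome 10 (69.2%) and of the genes near Ptbp1 (75.5%) beside that of all genes (67.8%); the dotted line marks 50%.

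By role, the most abundant genes near Ptbp1 included several of the list of sperm and germ cell genes. Reep6, an endoplasmic reticulum protein, led with 870.6 FPKM in control and 944.9 in Ptbp1_cKO. Cdc34, a ubiquitin-conjugating enzyme, followed with 691.6 and 696.5 FPKM, and Atp8b3, a phospholipid flippase of the sperm acrosome, with 607.8 and 614.0 FPKM. Csnk1g2, a casein kinase, had 466.5 and 507.7 FPKM and Theg, a protein of spermatids, 327.7 and 390.4 FPKM. Of the 8 genes in the list of sperm and germ cell genes, 7 were tested and 0 passed (against 0.458% of all tested genes called higher and 0.703% lower). All 7 had a higher FPKM in Ptbp1_cKO, with a median log2 fold change of 0.10 over 6 expressed genes. All 7 belong to the highest GC group, where 67.8% of expressed genes outside the window were higher. The change was close to 0 for Tpgs1 (log2 0.003) and Atp8b3 (log2 0.015). Odf3l2, a relative of an outer dense fibre gene, was listed at 0 in both groups and not tested.

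Among ligands, receptors and channels (11 genes), 8 were tested and 3 were expressed at 1 FPKM or more. Of the 8, 0 passed (against 0.458% of all tested genes called higher and 0.703% lower). Bsg, or basigin, a membrane glycoprotein needed for male fertility, had 495.1 FPKM in control and 476.1 in Ptbp1_cKO. Amh (80805243 to 80807648, plus strand, 940.5 kb from Ptbp1), the hormone that makes the Müllerian ducts regress and that falls in Sertoli cells at puberty, had 0.598 and 0.708 FPKM. That is 1.18 times the control level, with q = 0.978 by Cuffdiff in the authors' deposited table, and the control value rests on about 191 fragments. In whole testis, a different number of cells of a type and a different amount of RNA per cell cannot be told apart.

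Of 10 kinases and signalling adaptors, all tested, 0 passed (against 0.458% of all tested genes called higher and 0.703% lower). Stk11, the kinase LKB1 that activates AMPK, had 116.2 and 113.4 FPKM. Shc2, an adaptor of receptor tyrosine kinases, had 1.95 and 2.51 FPKM, or 1.29 times the control level, with p = 0.0624 and q = 0.604 by Cuffdiff in the authors' deposited table. An antisense gene, Gm47163, overlaps Shc2 and stood at 1.11 and 1.38 FPKM, so its reads may be shared.

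Midn was placed in the list of transcription and chromatin as a nuclear protein, although its role given above is in protein turnover. With it, 1 of 12 genes of that list was higher and 0 lower (against 0.458% and 0.703% of all tested genes), with a median log2 fold change of 0.07 over 11 expressed genes. Of 9 genes of RNA processing, 1 (Rexo1) was higher and 0 lower (against the same shares), with a median of 0.10. Each of these counts is a single gene, from which nothing about the lists follows. Dazap1, an RNA-binding protein that male germ cells need, had 170.1 FPKM in control and 158.7 in Ptbp1_cKO. None of the 7 genes of membrane traffic, among them Ap3d1 of the AP-3 adaptor complex (50.2 and 51.7 FPKM), passed either, nor did any of the 4 of the cytoskeleton and nuclear lamina or the 6 of a mixed list of protein turnover, polyamine and creatine synthesis. For comparison, the median over all 56 expressed genes was 0.08. The proteases of leukocyte granules Prtn3, Elane and Gzmm, which lie beside Ptbp1 or near it, summed to 0.203 and 0.264 FPKM and were not tested. Of 4 vomeronasal receptors, 3 were listed at 0 in both groups.

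**Figure D4:**
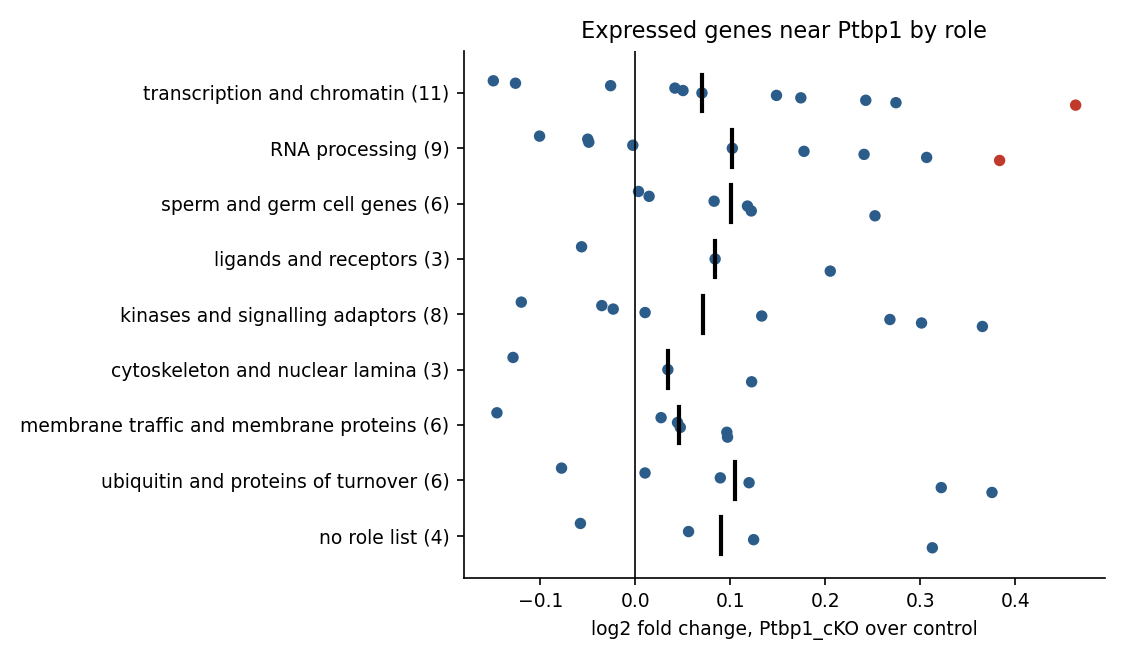
Log2 fold change, Ptbp1_cKO over control, of the expressed genes near Ptbp1 by role list, with the number of genes in brackets, a black bar at the median of each list and red points for Midn and Rexo1. List medians lie between 0.03 and 0.11. Within lists the genes lie on both sides of 0 except in the list of sperm and germ cell genes, where Tpgs1 and Atp8b3 lie close to 0.

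Cell type markers also differed in sum between the groups, and their part in the changes near Ptbp1 was not tested. The labelled tissue carried its markers: all 7 elongating spermatid, all 7 spermatocyte and all 14 Sertoli cell markers were above 0. Sertoli cell markers, Amh among them, summed to 1578 FPKM in control and 1882 in Ptbp1_cKO, with 13 of 14 higher. Clu made most of the rise in the sum (853.6 and 1199 FPKM), and the other 13 summed to 724.1 and 682.8 FPKM. Among those 13, Ctsl was the only lower one, at 396.6 and 322.5 FPKM. The median log2 fold change of the list was 0.20 over its 13 expressed genes. Leydig cell markers summed to 1147 and 1420 FPKM (4 of 8 higher), carried by Insl3 (749.6 and 1049 FPKM). The other 7 summed to 397.3 and 371.5 FPKM, and the median log2 fold change of the list was -0.04. Leukocyte markers summed to 45.5 and 61.6 FPKM (7 of 8 higher), peritubular myoid markers to 187.0 and 211.5 FPKM (4 of 5 higher) and endothelial markers to 9.52 and 11.2 FPKM (5 of 5 higher). Spermatogonial markers summed to 82.7 and 98.8 FPKM (6 of 7 higher), of which Uchl1 made 40.3 and 54.7. Spermatocyte markers summed to 694.0 and 620.0 FPKM (1 of 7 higher) and round spermatid markers to 1734 and 1620 FPKM (1 of 7 higher). Elongating spermatid markers summed to 51639 and 54846 FPKM (6 of 7 higher), and without Prm1 to 38503 and 38483 FPKM. Epididymis markers summed to 0.0761 and 7.88 FPKM, with 7 of 8 higher, Crisp1 at 0.0482 and 5.90 FPKM and Lcn8 listed at 0 in both. By Cuffdiff's q in the authors' deposited table, 1 Sertoli cell, 1 Leydig cell, 2 leukocyte, 2 spermatogonial and 3 epididymis markers were called higher, and 0 markers of any list lower.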

How the data were processed

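One deposited table was used, the output of Cuffdiff's gene test, with 55331 rows of which 22048 were tested. Its FPKM values are the authors' combination of 3 libraries into a single value per group. The log2 fold change, the test statistic (a score with a sign), the p-value and the q-value were used as deposited. In the submitters' processing notes the tools bcl2fastq 2.20, Trimmomatic 0.38 and STAR 2.6.1d are listed, as are Cufflinks, Cuffdiff and build mm10, without role or setting. The labels' protocols name a stranded TruSeq kit. The version of Cuffdiff, how it scaled the libraries and which annotation it used are not given in these sources. Without values per library, no SD was computed.

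Groups were taken from library titles. Calls rest on Cuffdiff's deposited q under 0.05, adjusted over all tested genes. Alternatives were a normal p from the statistic, other thresholds, filters, pseudocounts and windows, and left-out families put back. The genes, lists and tests were chosen with earlier results of these data known. Named genes were those past q or unadjusted p under 0.05, the 6 tested genes nearest to Ptbp1 on each side and those overlapping it, the 4 largest expressed changes in each direction, the 6 most abundant, Amh, Bsg, Stk11 and Dazap1, and from each role list the most abundant and the most changed gene, 33 in all. Any further gene was picked with its values in view.

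Positions are from GENCODE M21 (mm10), matched by gene identifier without version for 99.7% of rows, and GC content is that of the longest transcript there. Upstream sequences are from RefSeq (GRCm38.p6). Copies were sought with BLAST 2.17.0 at 95% identity over 80% of the longest transcript. The weight of 1 fragment was read from low values of single-exon genes: 226 fragments per FPKM and kb in control and 204 in Ptbp1_cKO, over libraries of 65200000 to 86900000 normalised fragments if each group value is a mean of 3 libraries. It covers counting error only. The adjustment and the fragment weights were tested on simulated data. Calculations used Python 3.11.15 with pandas 2.3.3 and scipy 1.17.1.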

Additional observations from a re-analysis of the deposited data

How the results depend on the processing

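No paired analysis was possible because the deposited table holds 1 value per group, and for the same reason no replicate could be left out. With a normal p from Cuffdiff's statistic, a scale the statistic does not follow, 0 genes near Ptbp1 were called higher in place of 2. The count stayed at 2 with q under 0.10, with adjustment over genes of at least 1 FPKM and with the left-out families put back. The first and last of these could not have lowered it. Within 500 kb of Ptbp1 the count was 1, since Rexo1 lies farther away. Putting the left-out families back added 1 lower gene, Cfd, so that 1 was called lower in place of 0. A fold of at least 1.5 left 0 of the genes kept higher in place of 10. The median log2 fold change of 0.08 was 0.0502 for genes with an FPKM of at least 5 and 0.0502 with the families put back. It was 0.00534 after subtracting the median of genes outside the window in the highest GC group, an alternative added after the data were seen. Under the other alternatives it ranged from 0.07 to 0.09. A pseudocount of 1 or 0.1 shrinks a change but cannot turn its direction. Subtracting the median of all expressed genes, -0.005267, turned none of the 33 named genes. That median is so small that only a gene with almost no change could have turned. With the normal p 2 named genes, Midn and Rexo1, lost their call. Where no cause is given above, the cause was not tested. Low counts limit genes such as Misp and Fgf22.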
